A study of Caenorhabditis elegans with 2 samples.

Results

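The Rab, Arf and Arl genes of the nematode Caenorhabditis elegans encode the small GTPases that direct membrane traffic. The set holds the protein-coding genes whose symbol begins with rab-, arf- or arl- and a digit in the Ensembl annotation of WBcel235, the assembly also called ce11. There were 29 of them among 19973 protein-coding genes, namely 20 rab genes, 3 arf genes and 6 arl genes. Family members that carry another kind of name, such as unc-108 (RAB-2), aex-6 (RAB-27) and evl-20 (ARL-2), fall outside this rule and were counted in a separate list of related genes.

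The data are peak lists from chromatin immunoprecipitation sequencing (ChIP-seq) of SNU-23, whose yeast namesake belongs to the spliceosome's tri-snRNP. The series consists of a single group with 2 biological replicates. Whole hermaphrodite larvae of the first stage (L1) of strain OP528 were used 6 hours after synchronisation, for which larvae had been starved after bleaching. The strain carries the fosmid-based transgene wgIs528, in which snu-23 is fused to TY1, EGFP and 3xFLAG tags beside unc-119(+) as a marker, in the unc-119 (tm4063) background. Chromatin bound by the tagged protein was recovered with anti-GFP antibody. Whole animals were used, so a peak cannot be assigned to a tissue.

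For each replicate and for both pooled, 30000 peak candidates were available, weak and background candidates included, together with 6675 final peaks, chosen by how well the replicates agree in rank (the irreproducible discovery rate, IDR). The final list was exactly the strongest 6675 pooled candidates. Each peak has a signal value from the authors, relative to a control, whose scale differs between lists. Signals of the pooled list therefore run higher than those of the single replicates. Depth is unknown because the lists hold no reads, so the counting error of a value cannot be estimated. Only the spread between the 2 replicates can be shown. Each peak is described by its value in both, and each count was repeated on the strongest 6675 candidates of either replicate. Marked genes are those with a final-list summit at most 500 bp from the annotated 5' end. No p-values are given, since there is no second group to compare with.

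Small GTPases of this kind act as switches that bind membranes when loaded with GTP and recruit coats, tethers and motors. Rab proteins give each compartment of the secretory and endocytic routes its identity. Arf proteins recruit vesicle coats to the Golgi apparatus and act at the plasma membrane, and Arl proteins serve the Golgi, lysosomes and cilia. Guanine nucleotide exchange factors (GEFs) turn these switches on and GTPase-activating proteins (GAPs) turn them off.

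The sequences at the strongest SNU-23 peaks of these genes are shown for their base composition and short motifs. The first 5 belong to the genes with the highest final-list signal at the 5' end, and the last 3 to the genes whose only final peak lay further inside the gene. Each run reaches 50 bases to either side of the summit in the ce11 genome, read from RefSeq's copy of WBcel235, 5' to 3' on the strand of the gene. For rab-18 the window was moved 69 bases upstream so that it held no exon. Capitals mark matches on either strand to the E-box CACGTG, the GATA-type motif TGATAA, the repeat GAGAGA, the GC-box core CCGCCC or the homopolymer TTTTTT.
rab-18, chrIII:1080776-1080876, minus strand: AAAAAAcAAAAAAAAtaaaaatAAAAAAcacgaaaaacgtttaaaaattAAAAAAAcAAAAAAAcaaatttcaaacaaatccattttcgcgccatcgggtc
arf-6, chrIV:16946898-16946998, plus strand: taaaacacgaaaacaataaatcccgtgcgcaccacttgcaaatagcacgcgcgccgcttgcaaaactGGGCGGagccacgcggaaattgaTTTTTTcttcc
rab-14, chrX:15606969-15607069, minus strand: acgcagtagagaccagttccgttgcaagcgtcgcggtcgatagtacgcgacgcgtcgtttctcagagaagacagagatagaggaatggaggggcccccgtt
rab-19, chrIV:13384065-13384165, minus strand: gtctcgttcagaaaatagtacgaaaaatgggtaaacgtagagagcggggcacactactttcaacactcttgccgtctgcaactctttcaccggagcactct
arf-5, chrIV:7982183-7982283, plus strand: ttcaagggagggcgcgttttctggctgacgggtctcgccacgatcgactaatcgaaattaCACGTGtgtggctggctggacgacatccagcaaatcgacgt
arf-1, chrIII:5715677-5715777, plus strand: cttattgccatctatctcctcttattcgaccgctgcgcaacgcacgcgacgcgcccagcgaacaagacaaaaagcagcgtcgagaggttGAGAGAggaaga
rab-3, chrII:5725247-5725347, minus strand: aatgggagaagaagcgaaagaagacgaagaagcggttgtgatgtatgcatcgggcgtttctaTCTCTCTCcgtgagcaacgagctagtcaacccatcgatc
rab-30, chrIII:10562636-10562736, plus strand: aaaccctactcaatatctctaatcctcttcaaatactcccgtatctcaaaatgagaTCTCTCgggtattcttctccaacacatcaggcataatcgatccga

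The share of G and C around the summits varied about as much among these genes (SD 7.71 points) as over all final peaks (SD 7.37). Within 50 bp of the summit, the 10 final peaks of the family had a median of 51.5% G and C, against 45.5% over all 6675 final peaks, whose quartiles were 40.6% and 50.5%. The range ran from 37.6% at rab-39 to 63.4% at rab-6.2. The windows of rab-18, arf-1, arf-5 and rab-14 also lay above the upper quartile, and those of the other members did not. The intergenic stretch printed for rab-18 had 22.8%, while the window at the summit itself had 53.5%. GAGAGA was found in 3 of the 10 windows centred on a summit (30%), against 29.9% of all final peaks. These were the windows of arf-1, rab-3 and rab-30, whose peak lay beyond 500 bp inside the gene. The intronic window of rab-19 held none. Of the 10 windows centred on a summit, that of arf-5 alone held CACGTG (6.35% of final peaks) and that of arf-6 alone held CCGCCC (5.63%). The homopolymer TTTTTT was likewise found in the arf-6 window alone (22%), although the shifted window of rab-18 holds it several times. No member's window held TGATAA (7.24% of final peaks). A match is only a match of letters in these windows.

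SNU-23 peaks stood at the 5' ends of 7 of the 29 genes (24.1%), against 16.8% of all protein-coding genes. These were rab-18, arf-6, rab-14, rab-19, arf-5, rab-39 and rab-6.2. Another 3 genes, arf-1, rab-3 and rab-30, had a final peak inside the gene only. With those, 10 of 29 (34.5%) had a final peak at the 5' end or in the gene, against 20.9% of protein-coding genes. By family, a final peak of either kind was found at 3 of 3 arf genes, 7 of 20 rab genes and 0 of 6 arl genes. The strongest 6675 candidates of replicate 1 marked 7 members beside 17.1% of protein-coding genes, and those of replicate 2 marked 7 beside 17%. The replicates shared 6 of their 7 genes: replicate 1 had rab-6.2 and replicate 2 had rab-3. Among the stronger 3337 final peaks, 3 members (10.3%) were marked beside 10.8% of protein-coding genes.

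**Figure D1:**
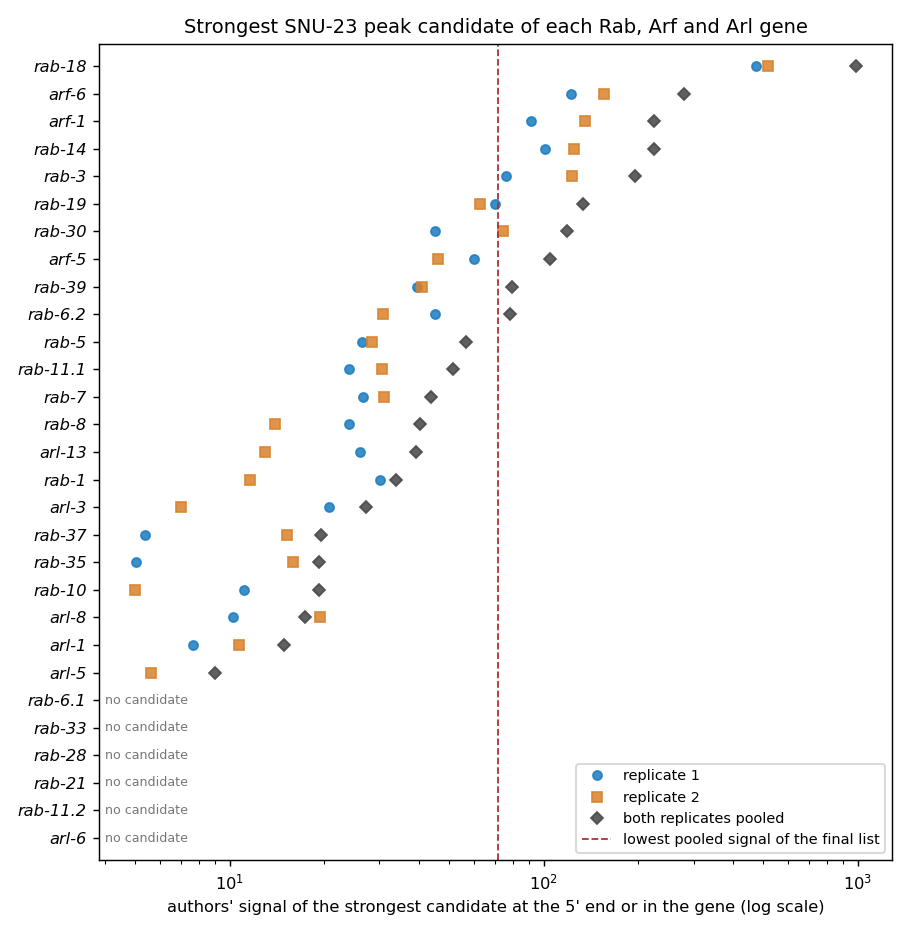
The authors' signal (log axis) of the strongest candidate within 500 bp of the 5' end or in the gene, for each of the 29 genes in replicate 1 (circles), replicate 2 (squares) and the pooled list (diamonds). In some genes the strongest candidate lies at a different place in each list. Diamonds of 10 genes lie right of the dashed line, the lowest pooled signal of the final list (71.7), and 6 genes have no candidate.

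The highest peak of the family was at rab-18, whose product acts at the endoplasmic reticulum and lipid droplets in mammals. Its signal was 473.1 in replicate 1, 519 in replicate 2 and 989.4 in the pooled list. That peak (chrIII:1080579-1080908) ranked 93rd in replicate 1 and 113th in replicate 2, and was the sole peak of the family among the first 1000. The summit lay 18 bp inside the gene, in the annotated 5' UTR. It also stood at -144 bp of kbp-4, a kinetochore gene on the opposite strand that is separated from rab-18 by 125 bp, so 1 peak marked both. The 10 family peaks otherwise reached a pooled signal of at most 279.1. Their median was 164.7, beside 158.2 for all final peaks. For the 7 at 5' ends alone the median was 133.5, beside 192.1 for the 2805 final peaks at coding 5' ends.

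Of the arf genes, arf-6 had the stronger peak at its 5' end. ARF-6 acts at the plasma membrane and in endosomal recycling. Its peak (chrIV:16946835-16947059) had 121.9 in replicate 1 and 155.8 in replicate 2 (279.1 pooled), with the summit at -172 bp. It also lay within 500 bp of the divergent gene Y116A8C.9, whose 5' end was nearer, with the summit at -148 bp.

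The peak of arf-5, which encodes another Arf protein, was weaker. At chrIV:7982216-7982318, it had 60.2 in replicate 1 and 46.2 in replicate 2 (104.8 pooled), with the summit at -293 bp. A non-coding RNA gene, F57H12.10, overlapped that summit on the opposite strand and had its 5' end nearer.

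ARF-1 recruits the COPI coat of Golgi vesicles. The final peak of arf-1 (chrIII:5715534-5715862) was intronic, 841 bp downstream of the 5' end, with 91.1 in replicate 1 and 135.1 in replicate 2 (225.2 pooled). At the 5' end itself a candidate of 22.3 appeared in replicate 1 at -446 bp, with 38.4 at -442 bp in the pooled list, and none in replicate 2.

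Of the rab genes, rab-14 had the next highest peak at a 5' end. RAB-14 takes part in the maturation of phagosomes in worms. Its peak (chrX:15606795-15607307) had 100.9 in replicate 1 and 125 in replicate 2 (224.5 pooled). Its summit lay at -384 bp, and no other annotated 5' end was within 500 bp. The intronic peak of rab-19 (chrIV:13383986-13384178) had 70.1 in replicate 1 and 62.6 in replicate 2 (133.5 pooled), at 271 bp inside the gene, and also fell within Y62E10A.20 on the same strand.

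Weakest of the 10 were the peaks of rab-39 and rab-6.2. For rab-39 (chrII:9323056-9323183), of the endolysosomal route in mammals, the signal was 39.5 in replicate 1 and 40.9 in replicate 2 (79 pooled, rank 6215), with the summit at -215 bp. RAB-6.2 serves retrograde transport to the Golgi. Its peak (chrX:17221846-17222241) had 45.1 in replicate 1 and 30.8 in replicate 2 (78 pooled, rank 6262), with the summit at -431 bp. In replicate 2 it ranked 8056, outside the strongest 6675.

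The last 2 of the 10 peaks were at rab-3, for the Rab of synaptic vesicles, and rab-30, for a Golgi Rab in mammals. Within rab-3 the peak (chrII:5725167-5725455) had 75.7 in replicate 1 and 122.8 in replicate 2 (195.8 pooled), 2556 bp inside the gene. At the 5' end of rab-3, a candidate of 41.2 was listed at -70 bp in replicate 2, and none in replicate 1 or the pooled list. Within rab-30 the peak (chrIII:10562591-10562725) had 45.2 in replicate 1 and 74 in replicate 2 (118.8 pooled), 2090 bp inside the gene.

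Every final peak found inside an intron of these genes lay upstream of a second annotated transcript start. The summit was 158 bp upstream of the internal 5' end in rab-19, 340 bp in rab-30, 388 bp in arf-1 and 567 bp in rab-3. In arf-1, rab-3, rab-30 and rab-19 the peak was therefore nearer to the internal start than to the annotated 5' end of the gene. Across all protein-coding genes, 1786 final summits lay in a gene beyond 500 bp from its 5' end, and 355 of these (19.9%) were within 600 bp upstream of an internal transcript start, as were 3 of 3 in the family. The limit of 600 bp was chosen after the values were seen; at 500 bp the numbers were 2 of 3 against 17.9%. When the 5' end of any transcript was allowed, 9 members were marked, against 18% of protein-coding genes.

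**Figure D2:**
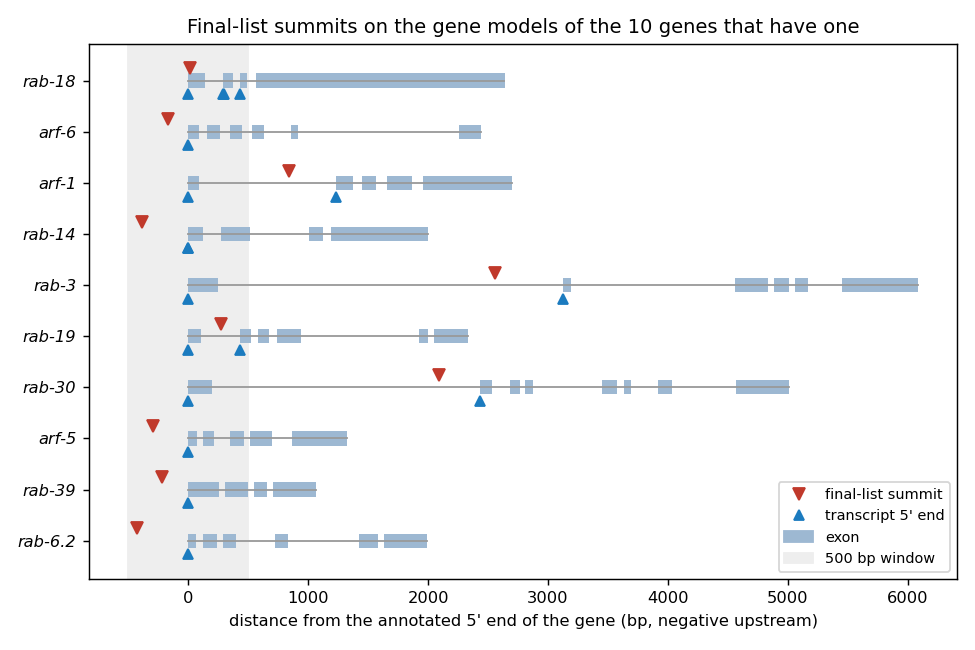
Final-list summits (red triangles) on the exons (blue boxes) and transcript 5' ends (blue triangles) of the 10 genes that have a final peak, strongest at the top, in bp from the annotated 5' end of each gene. The summits of arf-1, rab-3 and rab-30 stand outside the grey window of 500 bp, each left of a second transcript 5' end.

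Upstream positions prevailed at the marked 5' ends. Over the 7 marked genes the summit had a median of -215 bp, beside -166 bp for the nearest summit of 3355 marked protein-coding genes. It was -211 bp in replicate 1 and -182 bp in replicate 2, over the 7 genes marked in each. The 5 members with an upstream summit ranged from -431 bp at rab-6.2 to -172 bp at arf-6. Many worm transcripts are trans-spliced, so an annotated 5' end need not be where transcription starts.

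Replicates differed about as much at the family's peaks as elsewhere. Signal in replicate 2 was a median 1.17 times that in replicate 1, against 1.15 over 6593 final peaks with a match in both. On the log2 scale the ratio had a median of 0.22 (SD 0.44, n = 10 peaks), against 0.21 (SD 0.39) over all of them. The lowest ratio was at rab-6.2 (0.68) and the highest at rab-30 (1.64) and rab-3 (1.62). The peaks beyond 500 bp inside the gene, in arf-1, rab-3 and rab-30, had the 3 highest ratios, between 1.48 and 1.64. The intronic peak of rab-19, within 500 bp of the 5' end, had 0.89.

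**Figure D3:**
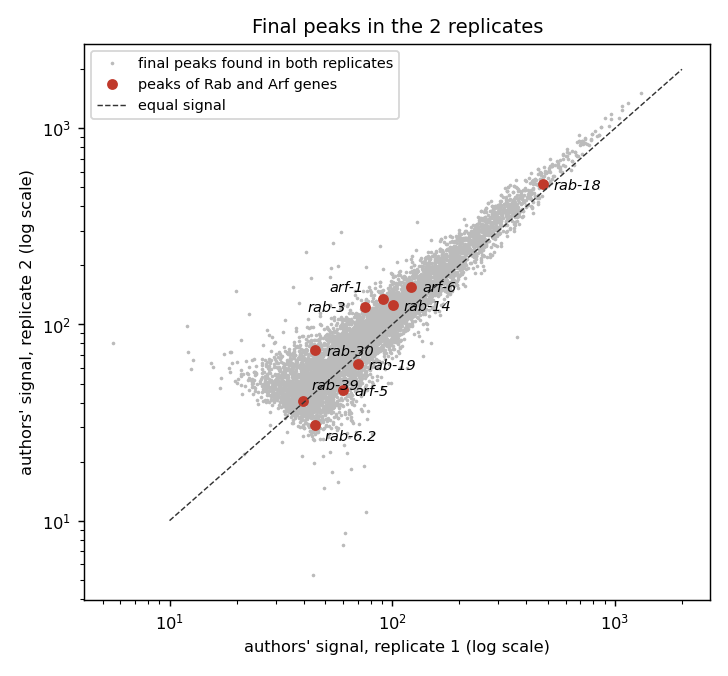
Signal of the final peaks in replicate 1 (x) and replicate 2 (y), both on log axes, for all peaks matched in both replicates (grey) and the 10 peaks of the family (red). Most family peaks lie within the grey cloud, with rab-18 highest and rab-6.2 furthest below the line of equal signal.

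Most of the family had weaker candidates or none. Pooled candidates lay within 500 bp of the 5' end at 15 of 29 genes (51.7%), against 33% of protein-coding genes, and at the 5' end or in the gene at 23 (79.3%), against 40.7%. Candidates at the 5' end in both replicates were listed for 14 members, against 29.1% of protein-coding genes. A pooled candidate but no final peak was found at 13 members, against 19.8% of protein-coding genes. These 13 were arl-1, arl-3, arl-5, arl-8, arl-13, rab-1, rab-5, rab-7, rab-8, rab-10, rab-11.1, rab-35 and rab-37. Their strongest pooled candidates had a median signal of 27.2, between 9 at arl-5 and 56.5 at rab-5. The median over all pooled candidates was 21.0. That is not a like measure, because it counts every candidate of a gene and includes the final peaks. By strongest candidate, the members just outside the final list were rab-5 (rank 7850), rab-11.1 (8344) and rab-7 (9245), and those just inside it rab-6.2 and rab-39. The rab-5 candidate of that rank lay in the 3' UTR. At the 5' end of rab-5 the candidate ranked 10864 in the pooled list, with 11.5 in replicate 1 and 20.1 in replicate 2.

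**Figure D4:**
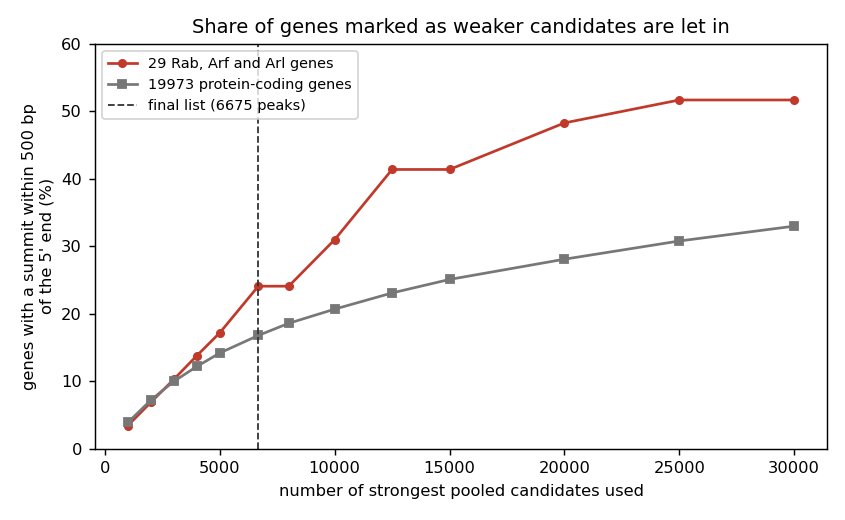
Share of the 29 family genes (red) and of all 19973 protein-coding genes (grey) with a summit within 500 bp of the 5' end, as more of the strongest pooled candidates are used. Both shares are near 10% at 3000 peaks, and at 30000 they are 51.7% and 33%.

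Of the 19 members with no final peak, rab-1, rab-5, rab-7 and rab-11.1 had a final summit within 1000 bp of the 5' end, as did 4.66% of the 15792 protein-coding genes with no final peak. These 4 are named for that distance, after their values were seen. RAB-5 organises early endosomes, RAB-7 late endosomes, RAB-11.1 recycling endosomes and RAB-1 the route between the endoplasmic reticulum and the Golgi. Each summit lay upstream. The distance was -554 bp at rab-1 (pooled signal 201.1), -690 bp at rab-11.1 (446.5), -701 bp at rab-5 (374.4) and -785 bp at rab-7 (855.6). The peak beyond rab-11.1 was within 500 bp of rpl-7, for a protein of the large ribosomal subunit. The 5' ends of the non-coding RNA genes F53G12.15 and F53G12.16 were nearer to that summit. The peak beyond rab-1 was within 500 bp of C39F7.5, with the 5' end of the non-coding RNA gene C39F7.7 nearer. The peak beyond rab-7, the strongest of the 4, was within 500 bp of W03C9.5. Beyond rab-5 no gene's 5' end lay within 500 bp of the summit. Near the 5' end itself, candidates of rab-11.1 had 24.0 in replicate 1 and 30.5 in replicate 2, at -55 and -67 bp. Those of rab-7 had 26.6 in replicate 1 and 31.0 in replicate 2, at -74 and 56 bp. At the 5' end of rab-1, replicate 2 listed a candidate of 4.32 at 436 bp, and replicate 1 and the pooled list none. Its strongest candidates lay further inside the gene, with 30.0 in replicate 1 at 1205 bp and 11.6 in replicate 2 at 640 bp.

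Of 4 further rab genes, the strongest pooled candidate lay inside the gene. At rab-10, which acts in basolateral recycling in the worm intestine, the strongest candidates had 11.1 in replicate 1 and 5.01 in replicate 2. At rab-8 they had 24.0 and 14 in replicates 1 and 2, and at rab-35, for the recycling of yolk receptors, 5.02 and 15.9. At rab-37, linked to secretory granules in mammals, they had 5.38 and 15.2. In rab-35 and rab-37 the strongest candidates of the replicates lay at different places. The median over all candidates was 11.5 in replicate 1 and 12.8 in replicate 2.

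None of the 6 arl genes had a final peak. ARL-13, ARL-3 and ARL-6 act in cilia, ARL-8 moves lysosomes and the precursors of synaptic vesicles, and ARL-1 recruits golgins. The highest arl candidate was at arl-13, with 26.0 in replicate 1 and 13.0 in replicate 2 (39.1 pooled, rank 10002). At arl-3 the strongest candidates had 20.7 and 7.00 in replicates 1 and 2, at arl-8 10.2 and 19.4, and at arl-1 7.66 and 10.7. In these 3 genes the replicates' candidates lay at different places, 532 and 1410 bp from the 5' end in arl-3, 42 and 866 bp in arl-8, and -325 and 860 bp in arl-1. At arl-5 replicate 1 had no candidate and replicate 2 had one of 5.63.

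For 6 genes no list held a candidate at the 5' end or in the gene. They were arl-6, rab-6.1, rab-11.2, rab-21, rab-28 and rab-33, and 51.9% of protein-coding genes were in the same position. RAB-28 and ARL-6 are ciliary proteins in worms. Both family pairs with a decimal in the name were split: rab-6.2 had a final peak and rab-6.1 no candidate, and rab-11.1 had candidates and rab-11.2 none. Their distance to the nearest final summit varied widely. It was -1544 bp at rab-21 (pooled signal 128.5), -1545 bp at rab-33 (574.7), -16516 bp at rab-28, 18581 bp at arl-6, 18935 bp at rab-6.1 and -26504 bp at rab-11.2. The summits beyond rab-21 and rab-33 lay within 500 bp of the coding genes cyn-11 and T01B7.5, and taf-11.3 and urm-1.

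Candidates below the final list also lay in 3' UTRs. A pooled candidate had its summit in the annotated 3' UTR at 9 of 29 members (31%), against 6.81% of protein-coding genes and 8.1% of the 16794 with an annotated 3' UTR. In replicate 1 the count was 7 (24.1%, against 6.79%) and in replicate 2 it was 10 (34.5%, against 6.58%). The pooled summits were in arf-1, arl-1, arl-5, arl-8, rab-1, rab-5, rab-8, rab-14 and rab-35, at 70 to 379 bp from the 3' end of the gene. The strongest was at rab-5, with 26.4 in replicate 1 and 28.3 in replicate 2 (56.5 pooled), and also lay within 500 bp upstream of the 5' end of the coding gene uev-3. The candidate of arl-8 was likewise within 500 bp of the 5' end of the coding gene Y57G11C.14, and the other 7 had no other coding 5' end that near. The next in signal was at rab-8, with 24.0 and 14. Matched candidates existed in both replicates for 5 of the 9, and none of the 9 was in the final list. The annotated 3' UTR was longer in the family, with a median of 291 bp against 131 bp for the protein-coding genes that have one, and its part in the difference was not tested.

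Family members with peaks were spread over 4 chromosomes. On chromosome I, 0 of 6 members had a final peak, although 22.9% of its protein-coding genes were marked. On chromosome IV, 3 of 5 were marked (15% of protein-coding genes), on X 2 of 3 (16.4%), on II 1 of 6 (15.3%), on III 1 of 8 (24.2%) and on V 0 of 1 (11.8%). Marked members had a median length of 2001 bp and a median of 4 introns, beside 2374 bp and 5 for all marked protein-coding genes. Members with no final peak at all had medians of 1409 bp and 3 introns, beside 1879 bp and 4 for protein-coding genes with none.

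Genes for the partners of these GTPases were set beside the family, in lists defined by symbol. Of coats, tethers and effectors, 19 of 36 were marked (52.8%, against 16.8% of protein-coding genes), with 18 in replicate 1 and 23 in replicate 2. The highest were apb-1, for an adaptin of clathrin coats (452.5 in replicate 1, 423.4 in replicate 2), and the exocyst genes sec-15 (414.1 and 445.2) and sec-3 (338.8 and 308.2). The sec-15 peak also lay at C28G1.2, a tRNA gene and 2 non-coding RNA genes, all with nearer 5' ends. Of 7 listed COPI coat genes 5 were marked, and copb-1 and copd-1 were not. Those marked were copz-1 (pooled signal 502.8), copb-2 (254.2), copa-1 (223.0), copg-1 (216.3) and cope-1 (141.3). The copz-1 peak was shared with cyn-4 and the copa-1 peak with gst-43, whose 5' end was nearer. The copb-2 peak was shared with a non-coding RNA gene, whose 5' end was also nearer. The gene for the coat's recruiter, arf-1, had its final peak in the intron described above.

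Regulators of the switches were marked as well. Of Arf regulators 5 of 10 were marked (50%, against 16.8% of protein-coding genes). They were led by git-1, for an Arf GAP (150.0 and 151.0 in replicates 1 and 2), grp-1, for an Arf GEF (151.3 and 139.7), and elmd-1 (95.3 and 136.3). Of Rab regulators 9 of 31 were marked (29%, against 16.8% of protein-coding genes), 9 in either replicate. The first was ccz-1, for a subunit of the GEF of RAB-7 (303.7 and 293.5), at a peak it shared with the coding gene tag-65, followed by tbc-14, for a presumed Rab GAP (234.8 and 238.6), and flcn-1, the folliculin gene (140.4 and 126.8). Related GTPases outside the symbol rule were marked at 4 of 11 (36.4%, against 16.8% of protein-coding genes). Of these, rheb-1, for the activator of TOR (251.3 and 317.8), unc-108, for RAB-2 (236.7 and 270.4), and sar-1, for the GTPase of the COPII coat (202.3 and 258.8), all stood above every gene of the family but rab-18. Peaks of rheb-1, git-1 and grp-1 were shared with the coding genes spk-1, mboa-7 and K06H7.7, whose 5' ends were nearer to the summit. That of elmd-1 was shared with the coding gene hecw-1, whose 5' end was further away. A tRNA gene and the non-coding RNA gene C56G7.4 had 5' ends nearer to that summit than elmd-1. These lists were not compared by a test with the family or with each other.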

How the data were processed

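Files were the deposited ce11 peak lists: 30000 candidates for each of 2 replicates, 30000 pooled candidates and 6675 final peaks. Per the deposited file descriptions, candidates were made from alignments and a control and served as input to IDR. Aligner, peak caller and versions were not given in the sources used here. Per the deposited lists, each peak has a signal value, a −log10 q-value (ceiling 4.38 in the pooled list, so not used for ranking) and a summit position. Ranks follow the signal, with tied peaks kept as listed. Positions are 1-based, on ce11; 0 peaks ran past a WBcel235 chromosome end. Genes came from Ensembl release 115, on 6 chromosomes.

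A replicate's peak was matched when it contained the pooled summit, and the strongest was taken. Intron numbers refer to the longest coding transcript. Named genes are all members, genes sharing their peaks and the 3 strongest of each related list; the other COPI genes, the genes at the nearest final summits and the internal-peak sequences were chosen after their values were seen. Of the related symbols, 3 had no match. Members and lists were chosen with earlier results of these data known. Software was Python 3.11.15, numpy 2.4.6 and pandas 2.3.3. The assignment of summits to genes was tested on simulated peaks. Lists on ce10 were not used, except for the number of final peaks.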

Additional observations from a re-analysis of the deposited data

How the results depend on the processing

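Across 46 alternatives, 34 left the value within 1.5 times the main count, or within the replicate spread for a position or ratio, and 12 did not. Marked members numbered 7 with either replicate left out, but 3 in the stronger 3337 final peaks (10.8%), 15 among all pooled candidates (33%), 3 within 250 bp (11.4% of protein-coding genes) and 12 within 1000 bp (21.4%). They were 5 when only the nearest 5' end of any gene counted (12.1% of protein-coding genes), 6 with coding 5' ends (13.7%), 9 with any transcript's 5' end (18%), and 8 when any overlap of the peak sufficed (18.3%). Members with a peak at the 5' end or in the gene numbered 10 (20.9% of protein-coding genes) and 23 among all pooled candidates (40.7%). They were 9 to 10 with 1 replicate left out and 5 in the stronger final peaks. For those settings the share of all protein-coding genes was not counted, so the numbers cannot be set against it. With as many pooled peaks as the final ce10 list (8993, added after seeing the data), 8 members were marked (19.7% of protein-coding genes), rab-11.1 being the added one.

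The median summit position ran from -211 to -182 bp with 1 replicate left out, and was -172 bp within 250 bp and in the stronger final peaks (3 genes each) and -338.5 bp within 1000 bp. Within 250 bp, related GTPases fell to 1 of 11 and Arf regulators to 3 of 10, beside 11.4% of protein-coding genes. Depth is unknown, so a missing candidate cannot be read as absence of SNU-23. No paired analysis was possible because there is 1 group.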

Other observations

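Of the 7 marked members, 6 had a divergent protein-coding gene as their upstream neighbour, counted at any distance. The last, arf-5, had a gene on the same strand within 1000 bp (20.1% of marked protein-coding genes). The gap to the divergent gene was 125 bp at rab-18, 319 bp at arf-6, 1039 bp at rab-39, 1333 bp at rab-14, 1937 bp at rab-19 and 5369 bp at rab-6.2. Genes that overlap a member were passed over, such as Y62E10A.20 at rab-19. Divergent neighbours were present at 64.1% of all marked protein-coding genes and 41.7% of the unmarked. Of the 19 members with no final peak, 9 had a divergent upstream neighbour. Another 8 followed a gene on the same strand within 1000 bp, namely arl-1, arl-5, arl-6, arl-13, rab-21, rab-28, rab-33 and rab-35. So did 30.2% of all unmarked protein-coding genes. That set is not quite alike, because it includes genes with a final peak inside the gene only. At 4 of these 8, the upstream gene itself was marked: F54C9.9 before arl-1, panl-3 before arl-5, cyn-11 before rab-21 and taf-11.3 before rab-33. Among all unmarked protein-coding genes with such a neighbour, it was marked at 20.2%. These are counts over few genes, with no test.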
